A study of Zea mays with 13 samples.

Results

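Acetylation of histone H3 at lysine 9 (H3K9ac) was compared between drought-stressed and well-watered maize leaves at the end of the stress (T0). The comparison takes 2 of the 13 libraries of the series, 1 on each side, and all 43943 features of the H3K9ac count table, which are 43789 gene models and 154 microRNA genes. The members were chosen by library and not by any measured value. The stressed plants had received 25% of disposable water for 10 days. The well-watered plants had received 75% over the same 10 days. All plants were of the inbred B73, were raised in a greenhouse with normal watering up to the V5-V6 stage, and were watered at 0.1 dS/m salt. Immature wrapped leaf was collected, and the antibody was against H3K9ac (Millipore). The sources do not say how many plants went into a library. Libraries of stressed and well-watered plants after 7 further days of recovery (T7) served for scaling and as a check of the T0 pair.

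H3K9ac is written by histone acetyltransferases such as those of the GCN5 class and removed by histone deacetylases. It removes the positive charge of the lysine, is read by bromodomain proteins and sits mainly around the starts of transcribed genes, where it can be gained and lost quickly. In plants it is one of the marks followed at genes that respond to water deficit, and in maize leaf it accompanies H3K4me3 at active promoters.

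The libraries held 1580825 counts in stressed and 1856159 in well-watered plants at T0, and 1152884 in stressed and 1241333 in well-watered plants at T7. A gene was analysed when it had at least 40 counts over these 4 libraries, which kept 41294 features and left out 2649. Each side has a single library, so the differences have no replicate check, and no SD or p-value is given. A gene met the rule of size where stressed and well-watered plants differed by 1.5-fold or more after scaling and 1 lay outside the exact 99.9% interval of the ratio. Such intervals cover counting error only. Ratios are given as log2 of stressed over well-watered, with 95% intervals for single genes.

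The well-watered T0 library stood apart from the other H3K9ac libraries in contrast, measured as enrichment over whole chromatin at the 95th percentile of genes relative to the 25th. Contrast was 4.60-fold in the stressed T0 library and 6.74-fold in the well-watered T0 library, against 4.82-fold in stressed and 4.50-fold in well-watered plants at T7. These values take whole chromatin in a 1 kb window at the gene start. With whole-gene counts of whole chromatin the library stood apart less. Contrast was then 10.3-fold in stressed and 11.9-fold in well-watered plants at T0, against 10.2-fold and 10.3-fold at T7. H3K9ac-marked genes, 13569 of those tested, are those that lay 2-fold or more over the 25th percentile of enrichment in each of the 4 libraries. These genes took 54.2% of the counts of the stressed T0 library and 59.5% of the well-watered one, against 55.1% and 53.8% in stressed and well-watered plants at T7. The well-watered T0 library is the only reference of the T0 ratio. Drought and library contrast cannot be told apart from the T0 pair alone.

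With TMM scaling, differences at the end of the stress ran mostly upward at genes that were not H3K9ac-marked and mostly downward at marked genes. H3K9ac was higher in stressed plants at 182 genes (0.441% of those tested) and lower at 343 (0.831%). Of the higher genes 17 were H3K9ac-marked and 165 were not, whereas of the lower genes 259 were marked and 84 were not. Among marked genes 0.125% were higher and 1.91% lower, and among unmarked genes 0.595% were higher and 0.303% lower. Over all tested genes the ratios had a median of 0.02, with 25th and 75th percentiles of -0.28 and 0.39. Over marked genes the median was -0.18 and 28.7% of genes lay above 0, while over unmarked genes it was 0.18 and 62.8% lay above 0. The split of calls depends on scaling. It was 247 higher and 210 lower with total counts. After the ratios were freed of their trend on enrichment in the 1 kb window it was 129 and 113. The same for whole-gene enrichment gave 211 and 350, and for abundance 179 and 135. Scaling on background genes gave 14 and 4212 and moved the median of all genes to -0.41. Below, the trend on enrichment is that of the 1 kb window unless whole-gene is stated. The tie to marking also depends on the trends. Without the trend on enrichment, a measure that also defines marking, 85 of 129 genes called higher and 31 of 113 called lower were marked. Without that on abundance 76 of 179 and 49 of 135 were. Of the 41294 tested genes 13569 were marked. The tie thus turned in the first case and was small in the second. It stayed without the trend on whole-gene enrichment, where 25 of 211 genes called higher and 242 of 350 called lower were marked.

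**Figure D1:**
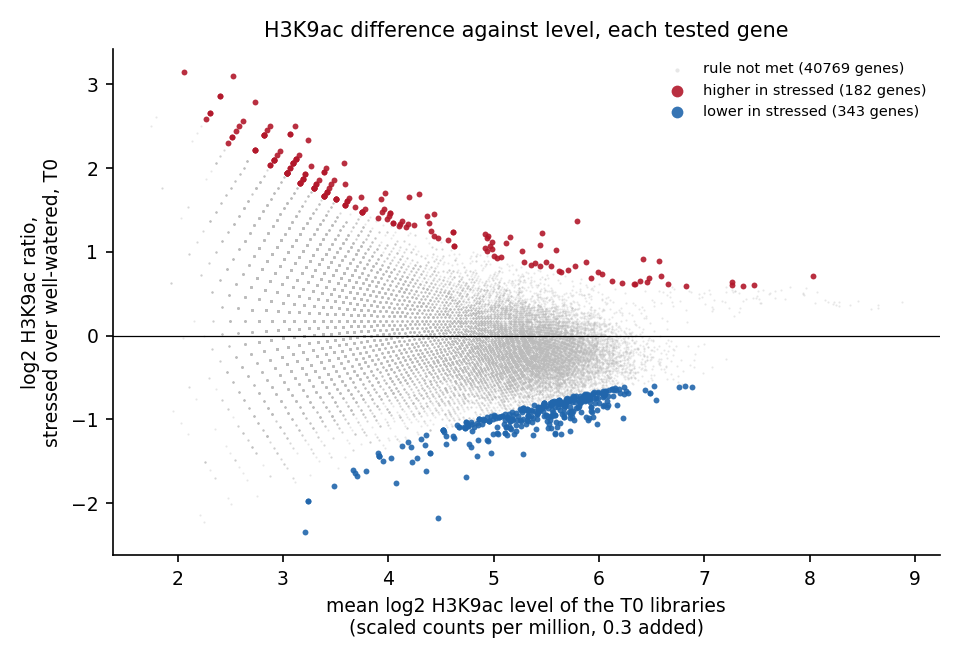
Each point is a tested gene, with the mean log2 H3K9ac level of the T0 libraries in counts scaled to library size (CPM), with 0.3 added, on the x axis and the log2 T0 ratio, stressed over well-watered, on the y axis. The 182 higher genes (red) are mostly at low levels and the 343 lower genes (blue) mostly at high levels.

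Folds were larger upward, where counts were lower. Genes that met the rule upward had a median fold of 3.12, and 148 of the 182 were at least 2-fold higher. Those that met it downward had a median fold of 1.88, and 113 of the 343 were at least 2-fold lower. Among marked genes the largest difference was 2.59-fold upward and 2.67-fold downward. A gene with the median of 59 counts over both T0 libraries needed 41 counts in the stressed and 18 in the well-watered library to count as higher, a 2.54-fold ratio, and 14 against 45 to count as lower, a 2.77-fold ratio. At the 95th percentile, 189 counts, ratios of 1.65-fold upward and 1.68-fold downward sufficed. Smaller differences could not meet the rule at these counts. Genes with more counts met it at ratios down to 1.51-fold in either direction. A ratio of 1.5-fold or more was seen at 6667 genes upward and 3192 downward before the interval was applied.

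Median levels in the T7 libraries lay between those of the T0 libraries in either direction. At the 182 higher genes the median level was 20.9 scaled CPM in stressed and 6.70 in well-watered plants at T0, and 14.5 in stressed and 13.8 in well-watered plants at T7. Some of the higher, unmarked genes lay far above these medians. Zm00001d025029 had 335.6 in stressed and 204.9 in well-watered plants at T0, and 389.3 in well-watered plants at T7. Zm00001d018175 had 219.1 and 143.5 at T0, and 270.3 in well-watered plants at T7. At the 343 lower genes it was 32.3 in stressed and 62.0 in well-watered plants at T0, and 40.4 in stressed and 38.8 in well-watered plants at T7. The well-watered T0 library was the highest of the 4 at 333 of the 343 lower genes and the lowest of the 4 at 166 of the 182 higher genes. The stressed T0 library was the lowest of the 4 at 248 of the lower genes and the highest at 146 of the higher ones. Genes were picked on the T0 pair, which places the T0 libraries at the ends. The well-watered T7 library entered that choice only through the count filter and the scaling. It lay nearer on the log scale to stressed than to well-watered plants of T0 at 219 of the 343 lower genes (63.8%). The same held at 125 of the 182 higher genes (68.7%), against 56.5% of all tested genes. At genes with few T0 counts the filter favours those with more T7 counts, and its part in these shares was not tested. The share differed by marking. It was 71.8% of the 259 lower, marked genes and 39.3% of the 84 lower, unmarked ones, and 52.9% of the 17 higher, marked genes and 70.3% of the 165 higher, unmarked ones, against 57.9% of all marked and 55.8% of all unmarked genes. Marking is defined on all 4 libraries, well-watered T7 included. The split therefore uses the values that set the share, and the shares by marking describe the genes and test nothing.

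**Figure D2:**
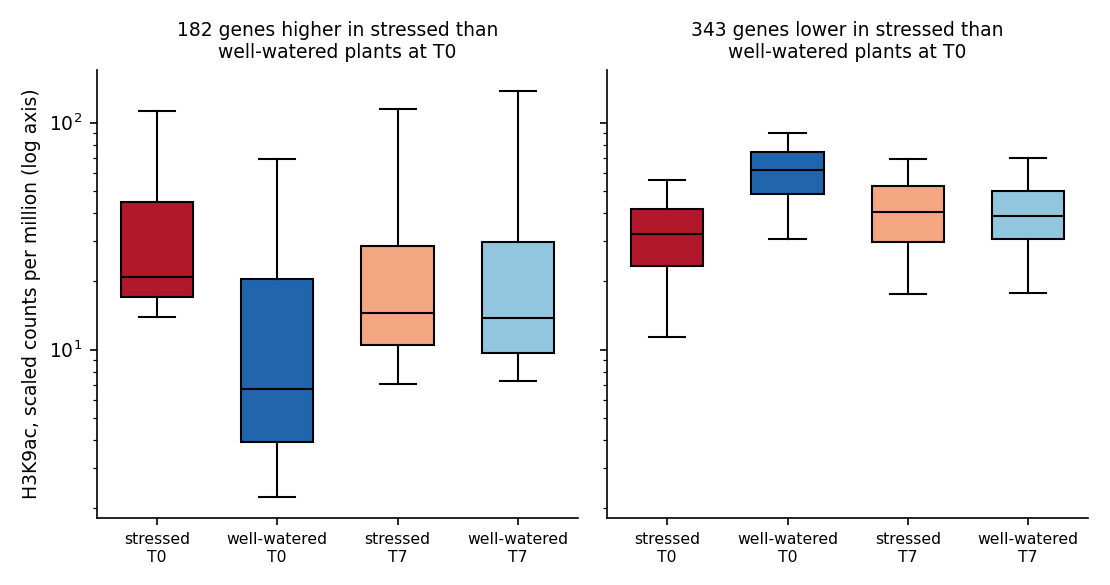
Boxes give the median and the 25th to 75th percentile, and whiskers the 5th to 95th percentile, of H3K9ac (scaled CPM, log axis) over the 182 higher and the 343 lower genes in each of the 4 libraries. The T7 medians of 14.5 and 13.8 (higher genes) and 40.4 and 38.8 (lower genes) lie between those of the T0 libraries.

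The well-watered T0 library also stood apart at the 2-fold enrichment level that defines marking. Over all tested genes 628 passed it in stressed but not in well-watered plants at T0, and 4221 in well-watered but not in stressed plants. Genes that met the rule were picked on the T0 ratio and split by a level that both T0 libraries enter, so the counts that follow describe them and test nothing. Among the 84 lower genes that were not H3K9ac-marked, all 84 passed that level in the well-watered T0 library, 55 in stressed and 57 in well-watered plants at T7, but 3 in the stressed T0 library. For 46 of the 84 the stressed T0 library was the single one of the 4 below the level. Of the 165 higher genes that were not marked, 37 passed the level in stressed and 4 in well-watered plants at T0. The stressed T0 library was the single one above it for 17 of the 165. Most of the higher genes, 127 of 182, passed the level in none of the libraries, as did 19102 of all 41294 tested genes. All 127 are among the 165 unmarked genes, and 19102 of all 27725 unmarked genes passed in none. Genes with under 20 whole-chromatin counts have no enrichment value and are counted here as not passing.

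The 4 gene models described next had intervals farthest from 1 for their direction and marking. The files pair no gene model with a name, and 0 of the 43789 IDs were found in the RefSeq table of assembly Zm-B73-REFERENCE-NAM-5.0, so no function or position is given. Zm00001d028574, an H3K9ac-marked gene, held 140 counts in stressed and 61 in well-watered plants at T0, and 64 in stressed and 63 in well-watered plants at T7. Scaled for depth these are 88.6 and 34.1 CPM at T0 and 56.2 and 51.0 at T7, with a log2 ratio of 1.37 (95% interval 0.94 to 1.84) at T0. The stressed T0 library was the high one. Its H3K4me3 was also higher in stressed plants at T0, by 0.65 on the log2 scale (0.40 to 0.88). H3K27me3, which did not mark this gene, held 21 counts in stressed and 8 in well-watered plants at T0 (1.39, 0.21 to 2.83). At T7 it held 15 in stressed and 14 in well-watered plants.

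Zm00001d024954, which was not marked, held 26 counts in stressed and 3 in well-watered plants at T0, a log2 ratio of 3.10 (1.59 to 5.66), and 8 and 10 counts at T7. Its level in well-watered plants at T0 was the lowest of the 4 libraries, and with 3 counts the size of the ratio is poorly known. Zm00001d031556, a marked gene, held 37 counts in stressed and 113 in well-watered plants at T0, and 45 in stressed and 52 in well-watered plants at T7, a log2 ratio at T0 of -1.42 (-2.01 to -0.88). Here the well-watered T0 library was the high one, and the other 3 lay between 23.4 and 42.1 scaled CPM against its 63.1. H3K4me3 at this gene had a ratio of -0.09 (-0.44 to 0.25). Zm00001d049464 held 16 counts in stressed and 84 in well-watered plants at T0, and 29 and 36 at T7, a log2 ratio of -2.17 (-3.08 to -1.43). It was among the genes that passed the 2-fold enrichment level in every library but the stressed T0 one, and its H3K4me3 ratio was -0.20 (-0.46 to 0.04).

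**Figure D3:**
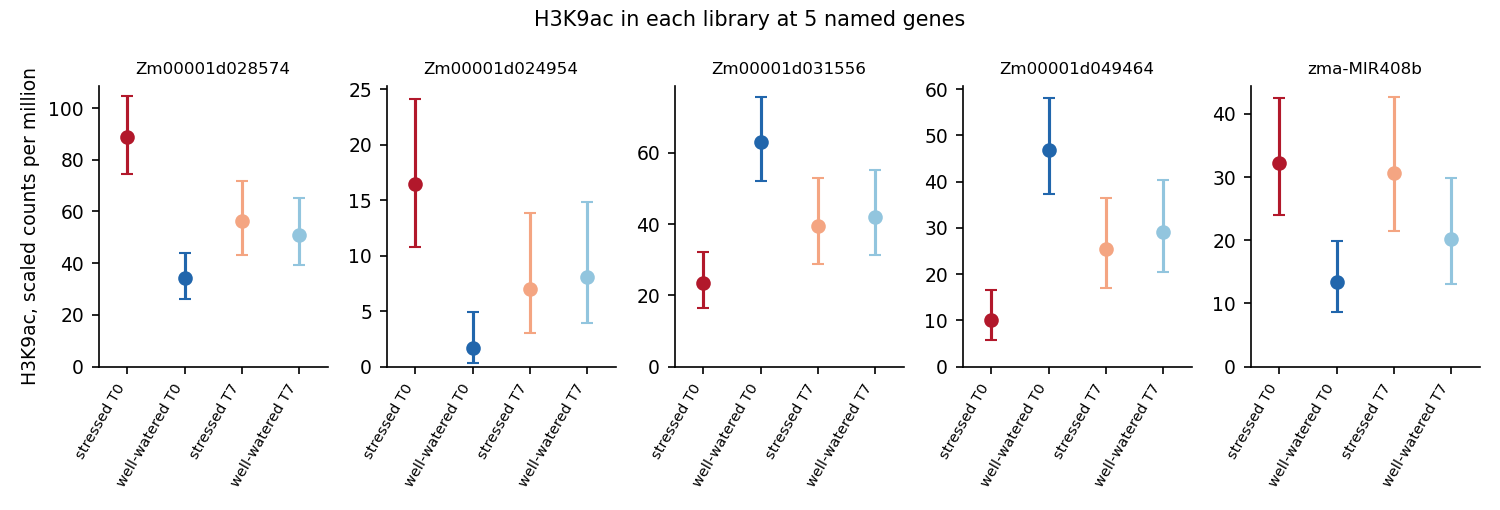
H3K9ac in scaled CPM (y axis, from 0, scale set for each gene) in each of the 4 libraries (x axis) for the 4 gene models and zma-MIR408b, with exact 95% Poisson intervals, which cover counting error. Stressed T0 stands above the others at Zm00001d028574 (88.6 against 34.1 to 56.2) and below them at Zm00001d049464 (10.1 against 25.5 to 46.9).

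With well-watered plants of T7 in place of those of T0, 45 genes were higher in stressed T0 plants (0.109%) and 51 lower (0.124%), of which 14 and 13 were marked. This pair differs by 7 days as well as by watering, and it shares the stressed library with the T0 pair. Well-watered plants of T7 set against well-watered plants of T0 gave 298 higher (0.722%) and 295 lower genes (0.714%), 4 and 203 of them marked. That comparison shares the well-watered T0 library with the T0 pair, so the calls of both rest in part on the same counts. Of the gene models above, Zm00001d028574 had a log2 ratio of 0.79 (0.36 to 1.25) against well-watered T7 plants, Zm00001d024954 0.98 (-0.08 to 2.24), Zm00001d031556 -0.84 (-1.49 to -0.21) and Zm00001d049464 -1.50 (-2.47 to -0.64). By this reference the rule was met by Zm00001d028574 and Zm00001d049464 but not by Zm00001d024954 or Zm00001d031556.

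The gradient with strength of the mark was read in quintiles of enrichment in stressed T7 plants, a library that enters none of these 3 pairs. The median T0 ratio of stressed over well-watered plants was 0.36 in the quintile with the weakest mark, 0.26 in the next, 0.06 in the middle one, -0.13 in the fourth and -0.21 in the strongest. Median levels in the strongest quintile were 42.4 scaled CPM in stressed and 49.1 in well-watered plants at T0. In the weakest quintile they were 11.4 and 8.93. The quintile with the strongest mark held 222 of the 343 lower genes and 8 of the 182 higher ones, and the weakest held 1 and 75. Well-watered T7 over well-watered T0 plants gave medians from 0.39 in the weakest to -0.21 in the strongest quintile, and stressed T0 over well-watered T7 plants gave -0.02 to 0.00. The gradient was thus seen in both pairs that hold the well-watered T0 library and not in the pair without it.

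**Figure D4:**
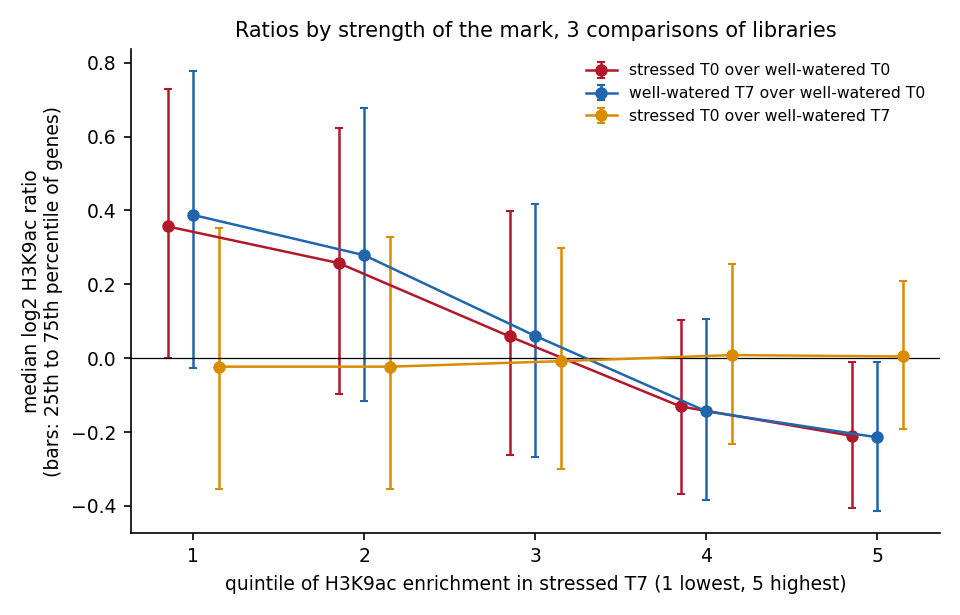
Median log2 H3K9ac ratio (points; bars give the 25th to 75th percentile of genes) by quintile of H3K9ac enrichment in stressed T7 plants, for 3 pairs of libraries. Both pairs with well-watered T0 plants as reference fall from above 0.3 to -0.21, and stressed T0 over well-watered T7 plants stays within 0.03 of 0.

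The T0 ratio also differed by which marks a gene carried. Polycomb-associated H3K27me3 marks silenced genes, and H3K4me3 marks gene starts whether or not H3K9ac is strong there. Of the 38039 genes measured for all 3 marks, 0.442% were higher and 0.868% lower. Genes with none of the 3 marks had a median ratio of 0.37 (n = 11900), and 103 (0.866%) were higher and 4 (0.0336%) lower. Genes with H3K27me3 alone had 0.30 (n = 944), with 8 (0.847%) higher and 0 lower. Where H3K4me3 and H3K27me3 met without H3K9ac the median was 0.12 (n = 2752), with 12 (0.436%) higher, close to the share of all genes, and 3 (0.109%) lower. H3K4me3 alone gave -0.07 (n = 9220), with 29 (0.315%) higher and 73 (0.792%) lower. Genes with H3K9ac and H3K4me3 had -0.18 (n = 12764), with 15 (0.118%) higher and 243 (1.904%) lower. Those with all 3 marks had -0.10 (n = 430), with 1 (0.233%) higher and 7 (1.63%) lower. Against well-watered T7 plants the same 6 classes had medians between -0.08 and 0.02.

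H3K4me3 and H3K27me3 were measured in other libraries of the same groups and so do not share the counts that chose the genes. At the 165 higher, unmarked genes H3K4me3 had a median T0 ratio of 0.58 over the 116 with enough counts, and 85.3% lay above 0. All tested unmarked genes had a median of 0.11, with 60.5% above 0. They are not matched to the 165 in this mark: H3K4me3 marked 45.1% of them and 25.5% of the 165. The 84 lower, unmarked genes had a median of -0.12 with 73.8% below 0, against 39.5% of all unmarked genes. These groups are not matched either, as H3K4me3 marked 95.2% of the 84 and 45.1% of all unmarked genes. At the 17 higher, marked genes the median was 0.31, and 14 of the 17 lay above 0, against 35.6% of all tested marked genes, whose median was -0.08. The 259 lower, marked genes had -0.12 with 76.1% below 0, against 64.4% of all marked genes. H3K27me3 had a median of 0.05 at the 301 lower genes with enough counts and 50.0% above 0 at the 134 higher ones. H3K27me3 marked 11.5% of the genes that were higher and 2.92% of those that were lower, against 13.3% of all unmarked and 3.17% of all H3K9ac-marked genes. Contrast for H3K4me3 was 22.8-fold in the stressed and 40.1-fold in the well-watered T0 library, and 22.4-fold and 23.0-fold in stressed and well-watered plants at T7. The part of this difference in the H3K4me3 shares was not tested.

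The microRNA genes are the features that the tables name, and 137 of the 154 had enough counts. Their products guide the silencing of target transcripts, and several families are known to respond to water or nutrient shortage. One gene of 137 (0.730%) met the rule, upward, and 0 met it downward, against 0.441% upward and 0.831% downward of all tested genes. With so few genes called, these shares do not set the microRNA genes apart. The 95% interval left out 1 upward at 9 (6.57%) and downward at 2 (1.46%) of the 137, against 6.07% upward and 7.01% downward of all tested genes. Of the 137, 15 were H3K9ac-marked, with a median ratio of -0.18, and 122 were not, with a median of 0.18, as over all marked and all unmarked genes. The 2 downward genes were marked, 13.3% of the marked microRNA genes against 14.8% of all marked genes. The 9 upward genes were unmarked, 7.38% of the unmarked microRNA genes against 8.22% of all unmarked genes. Of the 122 unmarked ones 0 were downward, against 3.20% of all unmarked genes. Counts were low, with a highest value of 117 at a microRNA gene in the T0 libraries, and neighbouring genes of a cluster such as those of MIR395 may share reads.

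Among the 7 genes for copper-related microRNAs, whose targets are transcripts of copper proteins, zma-MIR408b met the rule. It held 51 counts in stressed and 24 in well-watered plants at T0, and 35 in stressed and 25 in well-watered plants at T7, a T0 log2 ratio of 1.25 (0.54 to 2.03). Against well-watered T7 plants the ratio was 0.66 (-0.04 to 1.43), with an interval that held 1. H3K4me3 at this gene gave 13 and 21 counts in stressed and well-watered plants at T0, too few to place the ratio of 0.59 (-0.55 to 1.63). The other 6 genes had ratios between -0.92 and 0.11. They are zma-MIR397a and zma-MIR397b, whose products target laccases, zma-MIR398a and zma-MIR398b, which act on copper superoxide dismutases, and zma-MIR528a and zma-MIR528b, a family of grasses and other monocots. The lowest of them, zma-MIR397b, held 10 counts in stressed and 22 in well-watered plants (-0.92, -2.20 to 0.18).

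Genes for phase and leaf development made up 81 of the tested microRNA genes, with a median ratio of 0.07. MIR156 keeps plants juvenile by way of SPL factors and MIR172 acts on AP2-like factors later on. The interval left out 1 downward at a marked gene of each family. zma-MIR156k held 45 counts in stressed and 76 in well-watered plants at T0 (-0.57, -1.14 to -0.02), and 34 and 30 in stressed and well-watered plants at T7. zma-MIR172c held 71 and 112 at T0 (-0.47, -0.93 to -0.03), and 51 and 57 at T7. The well-watered T0 library was the high one at both. Against well-watered T7 plants zma-MIR156k had 0.22 and zma-MIR172c -0.04, so the direction at zma-MIR156k depends on the reference. All other tested MIR156 genes had intervals that held 1, among them zma-MIR156d with 93 counts in stressed and 88 in well-watered plants (0.26, -0.17 to 0.70).

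Upward, 7 of the 81 tested genes of this list had intervals that left out 1 without meeting the rule, and all 7 were unmarked. The upward share was 6.07% over all tested genes and 8.22% over all unmarked genes, so this count does not set the list apart. zma-MIR169i, of the family that targets NF-YA factors, held 27 counts in stressed and 10 in well-watered plants at T0 (1.57, 0.52 to 2.83), and zma-MIR169m 19 and 8 (1.38, 0.17 to 2.83). zma-MIR171g, whose family targets GRAS factors, held 23 and 9 (1.49, 0.37 to 2.83), and zma-MIR319c, whose family targets TCP factors, 20 and 8 (1.45, 0.26 to 2.90). The remaining 3 had smaller ratios. zma-MIR166l (HD-ZIP factors) held 24 and 13, zma-MIR394a (an F-box protein) 41 and 27 and zma-MIR159g (MYB factors) 26 and 15. Of all tested MIR169 genes 14 of 16 lay above 0, but 5 of 16 did once the trend on enrichment was taken out and 4 of 16 with scaling on background genes, so the direction of the family depends on scaling. MIR396 genes, which restrain growth-regulating factors, lay below 0 at 7 of 8, with a median of -0.20. That median stayed below 0 under each scaling, from -0.62 with background genes to -0.15 with total counts, and was -0.04 against well-watered T7 plants. The tally was 5 of 8 below 0 once the trend on enrichment was taken out, and 5 of 8 against well-watered T7 plants. Among them zma-MIR396d held 89 counts in stressed and 117 in well-watered plants (-0.21, -0.63 to 0.20). The gene with the most counts in this list, the marked zma-MIR159a, held 83 and 107 (-0.18, -0.62 to 0.24).

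**Figure D5:**
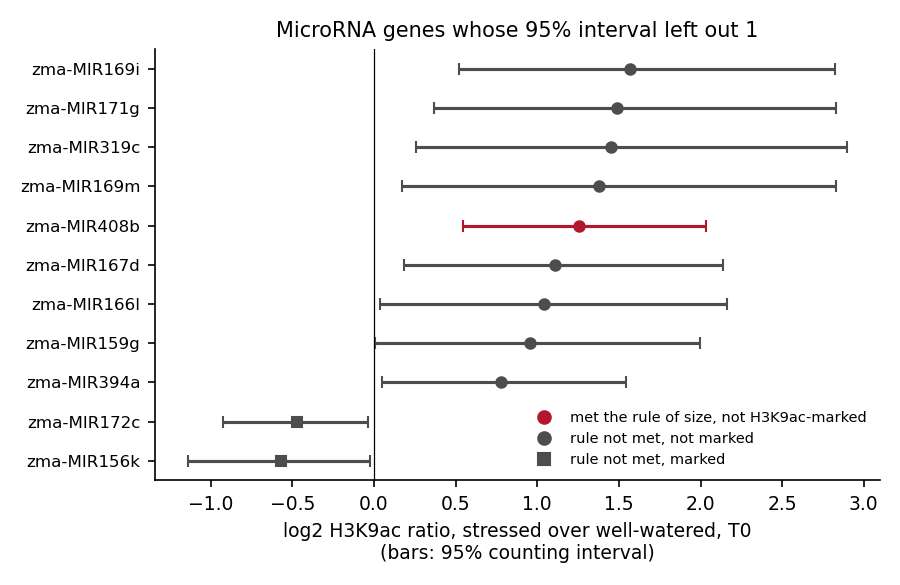
Log2 H3K9ac ratio of stressed over well-watered plants at T0 (x axis) with its 95% counting interval for the 11 microRNA genes (y axis) whose interval left out 1. zma-MIR408b (red, 1.25) met the rule of size, and both genes below 0, zma-MIR172c and zma-MIR156k, are H3K9ac-marked (squares).

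Auxin-related microRNA genes (MIR160 and MIR167 on auxin response factors, MIR393 on auxin receptors, MIR390 in the making of trans-acting small RNAs) had a median ratio of 0.33 over 17 tested genes, which was -0.10 with scaling on background genes. Of these zma-MIR167d had an interval that left out 1, with 29 counts in stressed and 15 in well-watered plants (1.11, 0.19 to 2.14). The best covered, zma-MIR393a, held 55 and 45 (0.47, -0.12 to 1.07). Nutrient-related genes (MIR395 for sulfate, MIR399 and MIR827 for phosphate) had a median of 0.28 over 17 genes, 14 of them above 0, but of -0.06 with the trend on enrichment taken out and -0.14 with scaling on background genes. None of the 17 had an interval that left out 1, and the one that was marked, zma-MIR399g, held 52 counts in stressed and 43 in well-watered plants (0.45, -0.16 to 1.07). The genes of the microRNAs that feed back on their own pathway were all marked: zma-MIR162, which acts on DICER-LIKE transcripts, held 53 and 47 counts (0.35, -0.24 to 0.95), and of those that act on ARGONAUTE transcripts zma-MIR168a held 71 and 58 (0.47, -0.05 to 0.999) and zma-MIR168b 51 and 56 (0.05, -0.53 to 0.62).

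MIR2118 and MIR2275 trigger phased small RNAs and are known from anthers. None of their 10 tested genes was H3K9ac-marked. Their ratios were all above 0, from 0.11 to 1.14 in MIR2118 and from 0.54 to 1.03 in MIR2275, with 9 to 21 counts in well-watered plants at T0 and intervals that held 1. The MIR2118 genes had a median of 0.67, against 0.18 over all unmarked genes. Above 0 were 5 of the 7 MIR2118 genes once the trend on enrichment was taken out, and 6 of 7 with scaling on background genes or against well-watered T7 plants, while the 3 MIR2275 genes stayed above 0 in each of these. Neighbours among them, such as zma-MIR2275a and zma-MIR2275b, may share reads. The list of remaining families to which both belong had a median of 0.59 over 12 genes, and its best covered gene, zma-MIR482, was marked and held 18 counts in stressed and 31 in well-watered plants (-0.59, -1.53 to 0.28). The leaf origin of the libraries was not checked against markers, because the files give gene models no names.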

How the data were processed

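Per the labels, leaf chromatin was sonicated, immunoprecipitated and made into libraries for Illumina sequencing. CASAVA 1.8, Bowtie2 and B73 RefGen_v4 stand in the submitters' processing notes. The deposited values are raw read counts per gene, not normalized by the authors. For the counting program, the window counted and any removal of duplicates the entry is: not given in the sources used here.

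Counts were scaled by TMM (edgeR 4.0.16, R 4.3.3) over the 4 H3K9ac libraries after a filter at 40 counts. Log2 ratios carry 0.5 prior counts per library, and intervals are Clopper-Pearson intervals of the conditional binomial share (scipy 1.17.1). They treat the scaling as fixed and do not cover variation between plants and immunoprecipitations. Enrichment is the log2 ratio to whole-chromatin counts in the 1 kb window at the transcription start, for genes with at least 20 of these (whole-gene counts for H3K27me3). That H3K9ac was counted in such a window is an assumption, and 1 whole-chromatin library of well-watered plants served all groups. Trends were removed by lowess (statsmodels 0.14.6, span 0.3). DESeq2 1.42.0 gave alternative size factors. The rule was also run on Poisson counts drawn with known 4-fold changes at genes with at least 200 counts. That run does not cover smaller changes, genes with fewer counts, or variation between plants and libraries.

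Genes were named by rule: in each direction the marked and the unmarked gene model whose 99.9% interval lay farthest from 1, each microRNA gene whose 95% interval left out 1, and the microRNA gene of each list with the most counts. Other named genes were chosen after their values were seen. The lists, the rule of size and the definition of marked genes were chosen with earlier results of these data known.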

Additional observations from a re-analysis of the deposited data

How the results depend on the processing

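The counts of 182 higher and 343 lower genes depend on scaling and on the well-watered library. Higher genes numbered 14 with scaling on background genes (the quintile of weakest enrichment), 37 with at least 200 counts, 2334 with a 95% interval and 45 with well-watered T7 plants as reference. Lower genes numbered 210 with total counts, 4212 with background genes, 113 with the trend on 1 kb enrichment removed, 135 with the trend on abundance removed, 113 at 2-fold, 1957 with a 95% interval and 51 with well-watered T7 plants. The median ratio of marked genes, -0.18, was -0.13 with total counts, -0.21 with DESeq2 size factors, -0.185 with TMM of the T0 pair, -0.20 with TMM over all features (added after seeing the data), -0.60 with background genes, 0.015 with the trend on 1 kb enrichment removed, -0.0051 with that on abundance removed, -0.20 with at least 200 counts, -0.0010 with well-watered T7 plants and -0.037 with genes marked by whole-gene enrichment. Its change of sign without the trend on 1 kb enrichment follows from construction, since that enrichment also defines marked genes and the correction centres their median near 0.

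Under 7 settings together (all scalings but background genes, and the removal of each trend) 41 of the 182 higher genes kept their call, 12 of them marked, and 69 of the 343 lower ones, 30 of them marked. Zm00001d028574, Zm00001d024954, Zm00001d031556 and Zm00001d049464 kept their call in each of these 7. zma-MIR408b did as well, but lost it with background genes (0.83) and well-watered T7 plants (0.66), and fell under the filter at 200 counts. MicroRNA genes that met the rule numbered 2 with background genes (zma-MIR172c and zma-MIR156k, both lower), 0 with at least 200 counts and 9 with a 95% interval. With well-watered T7 plants the single one was zma-MIR167a, lower, with 7 counts in stressed T0 and 22 in well-watered T7 plants. Directions reversed for zma-MIR168b with background genes (-0.38) and with well-watered T7 plants (-0.18), for zma-MIR159a with the trends on 1 kb enrichment (0.069) and abundance (0.024) removed, and for zma-MIR156k with well-watered T7 plants (0.22). No paired analysis was possible because each group has 1 library. Depth limits differences under 2.54-fold at the median gene, and no variation between plants was measured.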
